A study of Mus musculus with 33 samples.

Results

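Splice isoforms were compared between cardiac myocytes of 18-week-old Rbfox2 knockout (KO) mice and those of wild-type (WT) mice of the same age. Both genotypes were on a Black Swiss background, and the myocytes had been isolated from the heart. The labels describe the knockout only as RBFox2 KO and do not name the deleted part of the gene or any driver of the deletion. The series holds 33 samples, of which 6 are RASL-seq samples, 1 per genotype at 5, 9 and 18 weeks. The RASL-seq table has 3 numbered libraries for each of them, so the comparison used 3 KO and 3 WT libraries out of 18. RASL-seq anneals pairs of DNA probes to the RNA on either side of a splice junction, ligates the pairs that meet, and counts the amplified products. Each event thereby yields a count for a short and a count for a long isoform, and for a cassette exon the long isoform is the one that carries the exon. Of 3885 events, 2032 in 1650 genes were included, namely those with a mean of at least 20 counts over the 18 libraries and a mean of at least 1 count for each isoform. Of the 1853 left out, 1328 had too few counts and 525 had an isoform below the minimum. The lowest mean kept was 20.1 counts and the highest left out for its mean was 19.9 counts.

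Rbfox2 belongs to the RBFOX family of RNA-binding proteins, with Rbfox1 and Rbfox3. These proteins bind GCAUG motifs in introns near alternative exons. As a rule, an exon is included more often when the protein binds downstream of it and is skipped more often when it binds upstream, so loss of the protein can move exons in either direction. Rbfox1 and Rbfox2 are both expressed in heart muscle, where alternative exons are common in genes of the sarcomere, the cytoskeleton, calcium signalling and membrane traffic.

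The KO libraries held 4256181, 3447226 and 1998027 counts and the WT libraries 5282796, 3176178 and 4003759. Counts of libraries of the same genotype differed well beyond sampling noise, with a chi-square per degree of freedom of 29.4 to 44.5 between KO libraries and 6.29 to 21.6 between WT libraries, so each was counted as a replicate. Whether they came from different animals is not stated in the labels, and a p-value here reflects only the spread from library to library. Long isoforms took 57.2, 57.8 and 58.6% of all counts in the KO libraries and 56.1, 57.0 and 57.3% in the WT libraries. The myocyte marker genes Ttn, Cacna1c, Ldb3, Myom1 and Trdn summed to 45763 to 71757 counts per 1000000 counts of the library (CPM) in KO and 27539 to 45358 CPM in WT, most of it from Ttn. They did not move together. Ttn and Cacna1c were higher in every KO library than in any WT library, and Ldb3 and Myom1 overlapped. Trdn was lower, at 147, 166 and 340 CPM in KO and 1045, 1311 and 1203 CPM in WT. Of markers of other cell types, the endothelial genes Pecam1 and Emcn summed to 2306 to 3029 CPM in KO and 3220 to 3672 CPM in WT. The matrix genes Col6a3, Fbln2, Fn1 and Postn summed to 79.4 to 124 CPM in KO and 50.7 to 64.9 CPM in WT. The smooth muscle genes Myh11 and Smtn summed to 75.7 to 147 CPM in KO and 59.1 to 74.4 CPM in WT, with Cald1 at 0 in all 6 libraries. The leukocyte sum, nearly all Cd74, was 84.6 to 168 CPM in KO and 21 to 26.1 CPM in WT, with Ikzf1 at 0 in all 6 libraries. The part of these differences in cell markers in the isoform shares was not tested. In bulk RNA, fewer cells of a type and less RNA per cell cannot be told apart.

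At 18 weeks the isoform ratio differed between KO and WT in 395 of 2032 events (19.4%), in 362 genes, by edgeR's quasi-likelihood test at a Benjamini-Hochberg adjusted p under 0.05. Among them, 220 had a higher long-isoform ratio in KO (10.8% of those tested) and 175 a lower one (8.61%). The median log2 change of the long-to-short ratio over all tested events was 0.17, and scaling each isoform column by TMM (a scaling that assumes most features do not change) moved this median by -0.19. Under that scaling 332 events passed, 145 with the long isoform higher and 187 with it lower, and 318 of them were among the 395. The excess of higher over lower calls therefore turned round with the scaling. Shares without overlap between the 3 KO and the 3 WT libraries were found in 744 events (36.6%), and 390 of the 395 calls were among them. Cassette exons made up 1961 of the tested events, of which 210 had the long isoform higher and 170 had it lower. Of the 18 events of the type that the table calls TwoMulx, 6 had the long isoform higher and 3 had it lower. Alternative 3′ and 5′ splice sites gave 3 calls each, among 30 and 22 tested events.

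**Figure D1:**
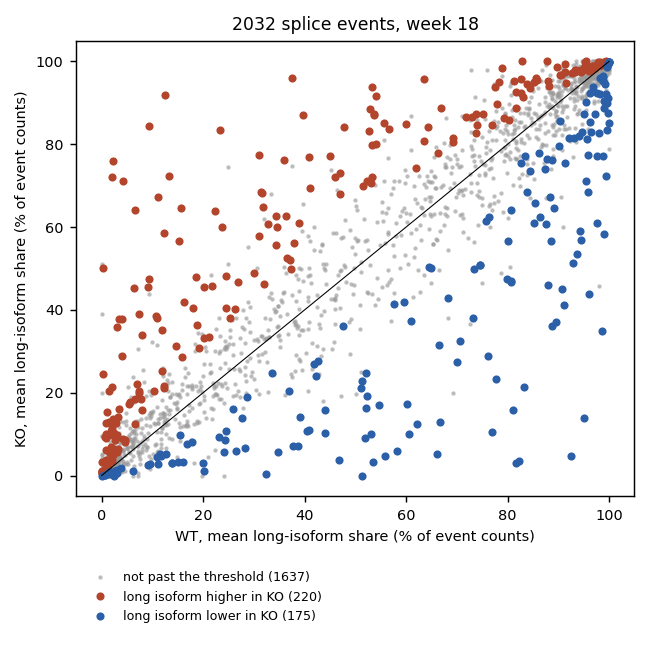
Mean long-isoform share (% of an event's short plus long counts) in KO (vertical axis) against WT (horizontal axis) for 2032 events at week 18, each point the mean of 3 libraries and the line marking equal shares. The 220 events with the long isoform higher in KO lie above the line and the 175 with it lower in KO lie below it, over the whole range of WT shares.

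The changes were often large. The median absolute change in the long share was 13.5 percentage points among the 395 events that passed and 2.90 points among all tested. At least 25 points separated KO and WT in 118 of the 395, with 58 higher and 60 lower in KO, and at least 50 points in 30, with 10 higher and 20 lower. At the other end, 88 passed with a change under 5 points. The direction varied with the WT share. Of 347 events whose long share was at most 5% in WT, 60 were higher in KO and 12 lower. Of 503 with a WT share above 95%, 20 were higher and 45 lower. Between 50 and 80%, 35 of 310 were higher and 36 lower. These groups were formed on the WT share, which also enters the change, so this is given as a description. Calls were also more frequent at higher counts, with 28.4% of 684 events with a mean of at least 1000 counts, 18.0% of 890 between 100 and 1000 and 8.95% of 458 below 100. The median change of the calls ran the other way, at 9.70, 15.1 and 32.2 points in the same order.

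In most of these events the mean CPM of the isoforms moved in opposite directions. The events were selected for a changed ratio, which favours such movement, so this is given as a description. The long isoform's mean CPM was higher and the short isoform's lower in KO in 178 of the 220 events with a higher long share. Among the 175 with a lower long share, the short isoform was higher and the long isoform lower in 133. In the remaining events both isoforms moved the same way by unequal amounts, both higher in KO in 24 and 29 of these events and both lower in 18 and 13. Isoform shares varied more between KO libraries than between WT libraries. Over the 395 events the median SD of the share was 2.39 points in KO and 1.32 in WT, and the KO SD was the larger in 258. The same order held in the events that did not pass, with medians of 2.38 points in KO and 1.73 in WT. KO library 3 had the fewest counts, with a median of 143 per tested event against 237 to 392.5 in the other week 18 libraries. The part of depth in these SDs was not tested.

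The targeted gene was low in all 3 KO libraries. The Rbfox2 event with the most counts (7670) totalled 44.4, 19.1 and 18.0 CPM in KO libraries 1, 2 and 3, against 299, 338 and 295 CPM in WT libraries 1, 2 and 3. Its total fell by 3.49 on the log2 scale (SE 0.43, edgeR adjusted p = 1.76e-05). Event 8783 of the gene totalled 18.6, 8.70 and 7.01 CPM in KO against 104, 119 and 116 CPM in WT, a log2 change of -3.25 (SE 0.48, edgeR adjusted p = 9.3e-05). The third event, 8797, averaged 2.51 ± 1.31 CPM in KO and 4.0 ± 0.936 in WT (SD, n = 3 each) and its total did not pass (edgeR adjusted p = 0.377). None of the 3 Rbfox2 events passed edgeR's ratio test, while limma called event 7670 (log2 change -1.38, adjusted p = 0.0466). The mean long share of that event was nevertheless slightly higher in KO, at 99.8% against 99.6% in WT. Its short isoform had only 1, 0 and 0 counts in KO and 3, 7 and 3 in WT. KO library 1 kept more Rbfox2 counts than the other KO libraries in each of the 3 events.

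Rbfox1, listed under its earlier symbol A2bp1 and encoding the paralogue that binds the same motif, was low as well. Event 4130 totalled 118, 58.9 and 53.1 CPM in KO and 625, 504 and 494 CPM in WT, a log2 change of -2.81 (SE 0.30, edgeR adjusted p = 3.17e-06). Event 5001 totalled 35.5, 25.5 and 14 CPM in KO and 143, 113 and 135 CPM in WT, a change of -2.34 (SE 0.29, edgeR adjusted p = 9.88e-06). Event 3792 totalled 14.1, 6.38 and 8.01 CPM in KO and 71.0, 66.7 and 74.4 CPM in WT, a change of -2.86 (SE 0.36, edgeR adjusted p = 1.13e-05). KO and WT did not overlap in any of these totals. By edgeR the ratio of isoforms passed in event 4130 and in neither of the others. The long share of event 4130 was 95.9 ± 0.807% in KO and 98.3 ± 0.822% in WT (SD, n = 3 each, edgeR adjusted p = 0.0239). That call was lost with DESeq2 (adjusted p = 0.0588) and without KO library 1 (edgeR adjusted p = 0.218), WT library 1 (0.0862) or WT library 3 (0.0913). The long share of event 5001 was 82.1, 95.5 and 96.4% in KO and 69.6, 76.0 and 74.9% in WT, higher in every KO library, but did not pass (edgeR adjusted p = 0.114). It passed when the 6 week 18 libraries were fitted alone (edgeR adjusted p = 0.0286) and without KO library 1 (edgeR adjusted p = 0.0393), and with limma (adjusted p = 0.0481). The ratio of event 3792 did not pass (log2 change -4.05, edgeR adjusted p = 0.0829), but did with limma (adjusted p = 0.0224) and without WT library 2 (edgeR adjusted p = 0.0335). Its short isoform had only 3, 1 and 0 counts in KO and 0, 2 and 0 in WT, too few to establish a change of isoform.

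**Figure D2:**
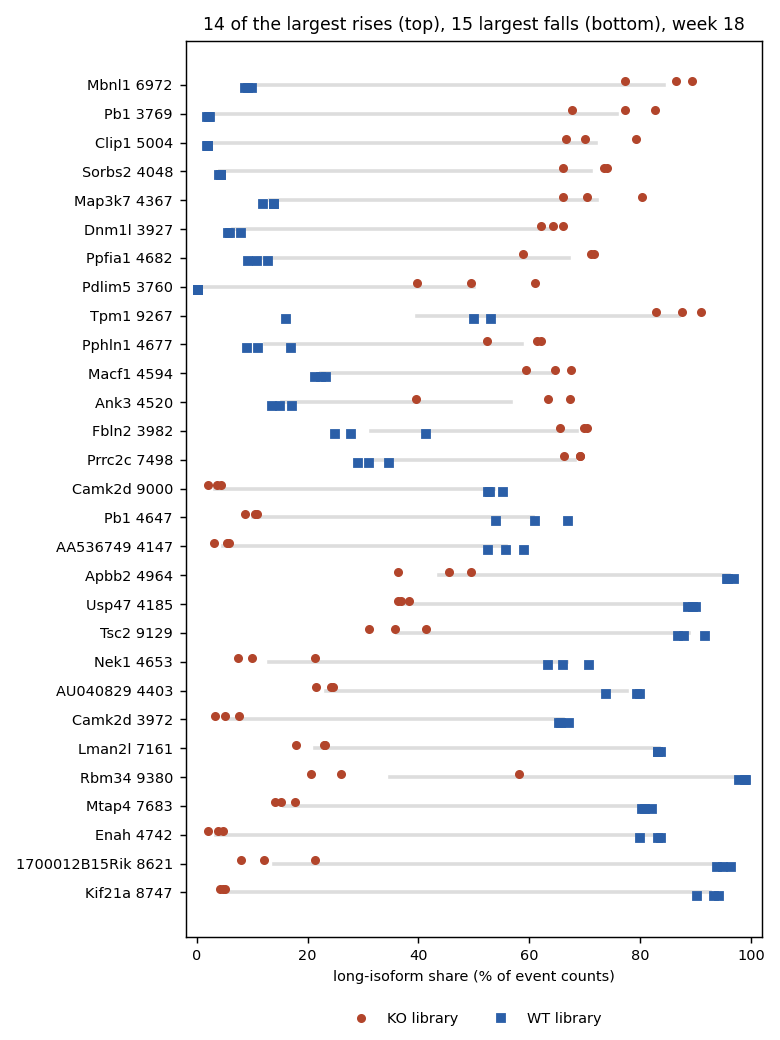
Long-isoform share (% of event counts) in each KO library (circles) and each WT library (squares) at week 18, for the 15 largest falls (bottom) and 14 of the 15 largest rises (top) in events that passed with a mean of at least 50 counts at week 18 and no overlap, labelled by gene and event number. Grey lines join the means. Kif21a 8747 at the bottom had shares of 4.28 to 5.07% in KO and 90.2 to 94.2% in WT, while Ank3 4520, Rbm34 9380 and Pdlim5 3760 spread most among the KO libraries.

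The sarcomere and Z disc genes had 34 tested events in 13 genes, of which 9 had the long isoform higher in KO and 9 lower (52.9%, against 19.4% of all tested events). Their median absolute change was 2.95 points, close to the 2.90 points of all events. Sorbs2, an adaptor protein of the Z disc and of cell adhesions, held several of these calls. The long isoform of its event 4048 had 4338, 5488 and 4270.2 CPM in KO and 146, 116 and 148 CPM in WT, 34.3 times the WT mean. The short isoform had 2229.9, 1985 and 1497 CPM in KO and 3544, 2543 and 3189 CPM in WT. Both isoforms were without overlap, in opposite directions, and the ratio had a log2 change of 5.81 (SE 0.27, edgeR adjusted p = 2.69e-12). In event 4678 the short isoform had 177, 213 and 205 CPM in KO and 9.09, 7.56 and 10.2 CPM in WT, and the long share was lower in KO by 10.3 points (edgeR adjusted p = 1.58e-10). Events 4833 and 4748, which share their short isoform's counts, had long shares higher in KO by 3.43 and 4.96 points (edgeR adjusted p = 0.000201 and 0.00622). Sorbs2 events 8229, 4596 and 3766 did not pass, with edgeR adjusted p-values of 0.998, 0.91 and 0.505.

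Pdlim5 encodes a PDZ and LIM domain protein of the Z disc. Its event 3760, an alternative 3′ splice site, had the most counts of the 30 largest changes. The short isoform had 5387, 5075 and 3742 CPM in KO and 23774, 22196 and 20145 CPM in WT, while the long isoform had 3562, 7931 and 3672 CPM in KO and 31.2, 44.1 and 39.5 CPM in WT. The long isoform was counted at 132 times the WT mean and the short one at 0.215 times it. The log2 change of the ratio was 9.19 (SE 0.58, edgeR adjusted p = 1.28e-09), and the event total fell by 1.16 on the log2 scale (edgeR adjusted p = 0.00221). Ldb3, the Z disc protein also called Cypher, had long shares of 41.3, 39.8 and 47.6% in KO and 67.3, 70.3 and 67.3% in WT in event 4593 (log2 change -1.53, SE 0.26, edgeR adjusted p = 0.000134).

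Ttn, the giant spring protein of the sarcomere, had long shares of 98.3 ± 0.139% in KO and 97.3 ± 0.0923% in WT (SD, n = 3 each) in event 3819 (log2 change 0.73, edgeR adjusted p = 0.0047), a call that was lost under TMM scaling (edgeR adjusted p = 0.164). Ttn events 4680 and 7728 did not pass, with edgeR adjusted p-values of 0.35 and 0.322. Tpm1 encodes alpha-tropomyosin, which lies along the thin filament. Its events 7351 and 9267 share a long isoform with 18.1, 29 and 38.5 CPM in KO and 3.22, 4.41 and 1.25 CPM in WT. This isoform was higher in every KO library but stayed minor beside the short isoform of event 7351, at 3963, 3935 and 5317 CPM in KO and 5523, 5951 and 5761 CPM in WT. The long share of event 7351 was 0.635 ± 0.157% in KO and 0.0513 ± 0.0268% in WT (log2 change 3.63, SE 0.57, edgeR adjusted p = 7.23e-05). Event 9267 compares the same isoform with another minor one, and its long share was 87.1 ± 4.07% in KO and 39.8 ± 20.5% in WT (log2 change 3.39, SE 0.69, edgeR adjusted p = 0.000938).

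The actin and membrane skeleton genes had 62 tested events in 39 genes, of which 13 had the long isoform higher in KO and 12 lower (40.3%). Enah, an Ena/VASP protein that elongates actin filaments, had the largest fall in share among the named events of this group, in event 4742. Its short isoform had 1069, 2498 and 3312 CPM in KO and 42.2, 52.3 and 49.2 CPM in WT, and its long isoform 52.9, 98.9 and 70.1 CPM in KO and 217, 207 and 244 CPM in WT. The event total was 2367 ± 1147 CPM in KO and 270.5 ± 19.5 CPM in WT (SD, n = 3 each), so the short isoform's excess in KO was larger than the long isoform's deficit. The log2 change of the ratio was -7.06 (SE 0.51, edgeR adjusted p = 8.96e-10). Another Enah event, 7915, did not pass (edgeR adjusted p = 0.353).

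Other named events of this group differed by fewer percentage points. Coro6, a coronin that binds actin filaments, had a long share of 51.4 ± 1.62% in KO and 92.8 ± 1.52% in WT in event 7992 (log2 change -3.63, edgeR adjusted p = 5.12e-09). Ank1 event 4371, of an ankyrin that ties membrane proteins to spectrin, stood at 71.1 ± 2.56% in KO and 95.5 ± 0.134% in WT (log2 change -3.11, edgeR adjusted p = 1.08e-08). In Myo18a, an unconventional myosin, the short isoform of event 3852 averaged 50.0 CPM in KO and 0.209 CPM in WT (log2 change of the ratio -7.32, edgeR adjusted p = 2.69e-08). The rises included Macf1, which links actin to microtubules, with 59.3, 64.7 and 67.5% in KO and 21.3, 22.5 and 23.4% in WT in event 4594 (log2 change 2.62, edgeR adjusted p = 6.45e-07). Ank3 event 4520 had 39.5, 63.4 and 67.3% in KO and 13.6, 17.2 and 15.1% in WT (log2 change 2.87, edgeR adjusted p = 7.23e-05), with KO library 1 well below the other KO libraries but above all WT libraries. AA536749, whose current symbol is Mprip and which binds myosin phosphatase and RhoA, is in the list only under that current symbol and was therefore not counted in it. Its event 4147 had long shares of 3.10, 5.77 and 5.37% in KO and 52.6, 55.7 and 59.1% in WT (log2 change -4.72, edgeR adjusted p = 2.32e-08).

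Genes of microtubules and motors had 33 tested events in 18 genes, with 3 long isoforms higher in KO and 7 lower (30.3%). Kif21a, a kinesin that limits microtubule growth, had the largest change in share of all named events in event 8747. The short isoform had 573, 504 and 403 CPM in KO and 4.16, 10.1 and 5.99 CPM in WT, 73.1 times the WT mean, and the long isoform had 25.6, 25.2 and 21.5 CPM in KO and 58.1, 92.9 and 97.4 CPM in WT. The log2 change of the ratio was -8.01 (SE 0.43, edgeR adjusted p = 1.12e-11). In another Kif21a event, 3736, the long share was higher in KO, at 7.56, 14.4 and 16.5% against 2.72, 2.65 and 2.86% in WT (log2 change 2.31, edgeR adjusted p = 4.27e-06). The total of event 8747 rose by 2.54 on the log2 scale (edgeR adjusted p = 5.69e-09), and that of event 3736 had a log2 change of -0.16 (edgeR adjusted p = 0.431), so the totals of a gene's events did not move together.

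Mtap4, now Map4, encodes the main microtubule-associated protein of non-neuronal cells. The short isoform of its event 7683 had 4097, 3711 and 3552 CPM in KO and 224, 242 and 254 CPM in WT, and the long isoform 734, 803 and 586 CPM in KO and 1026, 1022 and 1038 CPM in WT. The long share was accordingly 15.7 ± 1.87% in KO and 81.1 ± 0.897% in WT (SD, n = 3 each), a log2 change of -4.53 (SE 0.26, edgeR adjusted p = 2.12e-11). Clip1, a protein that tracks growing microtubule ends, showed the reverse. The long isoform of event 5004 had 54.5, 51.1 and 31 CPM in KO and 0.568, 0.63 and 0.50 CPM in WT, and the ratio had a log2 change of 6.97 (SE 0.64, edgeR adjusted p = 2.69e-08). Kif13a, a kinesin that carries endosomes, lost 7.29 points of long share in event 8255, with 92.1 ± 1.38% in KO and 99.4 ± 0.0458% in WT (edgeR adjusted p = 3.7e-10).

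Calcium handling and calmodulin signalling genes had 32 tested events in 24 genes, of which 4 had the long isoform higher in KO and 7 lower (34.4%). Camk2d, the main cardiac form of the multifunctional calcium/calmodulin-dependent kinase II, had 5 tested events. Events 3972, 9000, 4554 and 8961 share isoform columns, so their isoforms are described one by one. The isoform that is the short one of events 3972 and 9000 had 5326, 5080.3 and 3222 CPM in KO and 948, 881 and 937 CPM in WT, 4.93 times the WT mean. The long isoform of event 3972 had 434, 168 and 172 CPM in KO and 1942, 1663 and 1800.1 CPM in WT. The long isoform of event 9000 had 105, 196 and 144 CPM in KO and 1169, 977 and 1054 CPM in WT. The long isoform of event 4554 had 7.52, 62.7 and 74.1 CPM in KO and 887, 749 and 795 CPM in WT. Of these, 1 isoform was higher and 3 were lower in every KO library than in any WT library, at 0.143, 0.139 and 0.0594 times their WT means.

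The 2 events that set the higher isoform against a lower one passed, with log2 changes of -5.21 (SE 0.36, edgeR adjusted p = 3.85e-10) in 3972 and -5.15 (SE 0.55, edgeR adjusted p = 9.67e-07) in 9000. Events 4554 and 8961 compare the lower isoforms with each other. Their ratios did not pass (edgeR adjusted p = 0.471 and 0.931), while their totals fell by 3.09 and 2.82 on the log2 scale (edgeR adjusted p = 3.17e-06 and 1.36e-05). KO library 1 stood apart in both. Its long share was 1.70% in event 4554, where the other KO libraries had 27.1 and 30.1%, and 80.5% in event 8961, where they had 46.2 and 54.4%. Camk2d event 4762, which shares no isoform column with the others, had a long share of 99.5 ± 0.116% in KO and 99.6 ± 0.0258% in WT and did not pass (edgeR adjusted p = 0.38).

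**Figure D3:**
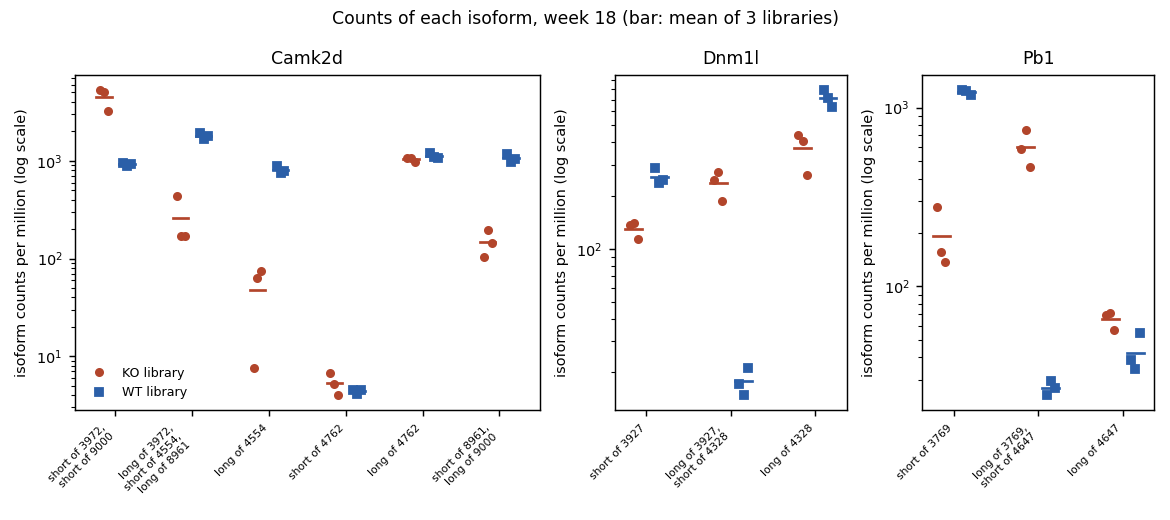
CPM (log axis) of each isoform of Camk2d, Dnm1l and Pb1 at week 18, with circles for KO libraries, squares for WT libraries and bars for the mean of 3. Isoforms are named by the events that count them. In each gene 1 isoform was several-fold higher in KO (4.93, 13.2 and 22.2 times the WT mean) while at least 1 other was lower.

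The other named events of the calcium group were in Ppp3cc and Pde4dip. Ppp3cc, a catalytic subunit of calcineurin, had long shares of 16.7, 19.4 and 15.5% in KO and 6.37, 5.17 and 4.5% in WT in event 4997 (log2 change 1.88, SE 0.23, edgeR adjusted p = 1.91e-06). Pde4dip, or myomegalin, which anchors phosphodiesterase, passed in event 7818 on a change of -0.20 points (edgeR adjusted p = 2.68e-06), its short isoform averaging 7.03 CPM in KO and 0.376 CPM in WT beside a long isoform of 3196 CPM in KO and 3346 CPM in WT. Ion channel genes had 7 tested events in 5 genes, with 1 long isoform higher and 1 lower (28.6%). Abcc9, the sulfonylurea receptor subunit of the cardiac ATP-sensitive potassium channel, had 23.9, 23.2 and 35.3% in KO and 72.5, 66.4 and 71.3% in WT in event 7645 (log2 change -2.69, SE 0.40, edgeR adjusted p = 3.38e-05).

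Splicing regulators and other RNA-binding proteins had 65 tested events in 42 genes, of which 6 had the long isoform higher in KO and 7 lower (20.0%, close to the 19.4% of all events). The Muscleblind genes, whose proteins drive the change from fetal to adult splicing in muscle, held several of the rises. Mbnl1 event 6972 had a short isoform of 63.9, 36 and 31.5 CPM in KO and 217, 177 and 200.1 CPM in WT, and a long isoform of 217, 229 and 266 CPM in KO and 22.3, 19.5 and 19.2 CPM in WT. The isoforms thus exchanged places, and their sum was 281 ± 16.3 CPM in KO and 218 ± 21.7 CPM in WT (SD, n = 3 each, edgeR adjusted p = 0.168 for the total). Mbnl2 moved the same way in events 4827 (25.9, 42.7 and 38.9% in KO against 1.81, 3.66 and 3.63% in WT, edgeR adjusted p = 2.48e-06) and 4811 (31.7, 47.6 and 36.4% in KO against 9.84, 12.1 and 10.5% in WT, edgeR adjusted p = 4.76e-05). Mbnl2 event 8565 had a long share of 2.68 ± 0.54% in KO and 3.11 ± 0.161% in WT and did not pass (edgeR adjusted p = 0.577).

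Mbnl1 event 3966 passed narrowly, with long shares of 78.2, 79.6 and 71.6% in KO and 88.1, 87.8 and 87.6% in WT (log2 change -1.10, edgeR adjusted p = 0.0428), and it missed the threshold when any 1 of the 6 libraries was left out (edgeR adjusted p from 0.0607 to 0.129). Mbnl1 event 4569 did not pass the ratio test (edgeR adjusted p = 0.288), but its total was 83.2 ± 29 CPM in KO and 9.70 ± 2.29 CPM in WT, a log2 change of 3.13 (edgeR adjusted p = 3.58e-07). Hnrnpa1, an abundant repressor of splice sites, had 7.53, 8.41 and 7.0% in KO and 16, 17.2 and 17.1% in WT in event 7108 (log2 change -1.29, SE 0.20, edgeR adjusted p = 4.18e-05). Rbm34, an RNA-binding motif protein, had 58.2, 20.6 and 26% in KO and 99.0, 97.8 and 99.0% in WT in event 9380 (log2 change -7.18, SE 0.71, edgeR adjusted p = 8.47e-08).

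Membrane trafficking genes had 43 tested events in 30 genes, with 7 long isoforms higher in KO and 6 lower (30.2%). The largest was Lman2l, a lectin that helps glycoproteins leave the endoplasmic reticulum, with 23, 17.9 and 23.2% in KO and 83.1, 83.2 and 83.7% in WT in event 7161 (log2 change -4.21, SE 0.42, edgeR adjusted p = 8.92e-08). Snx14, a sorting nexin, had 77.4 ± 2.00% in KO and 95.8 ± 0.847% in WT in event 4427 (edgeR adjusted p = 5.44e-08). Snap23, a SNARE protein of the plasma membrane, had 5.70 ± 1.85% in KO and 24.2 ± 2.51% in WT in event 4329 (edgeR adjusted p = 8.73e-05). Golga2, a tether of the Golgi, gained long isoform, at 87.3 ± 1.54% in KO and 75.1 ± 0.853% in WT in event 8085 (edgeR adjusted p = 0.000474). SDs are over 3 libraries of each genotype.

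Cell adhesion and junction genes had 39 tested events in 26 genes, with 8 long isoforms higher in KO and 8 lower (41.0%). Nf2, or merlin, which links the membrane to actin, had 90.6 ± 0.955% in KO and 99.1 ± 0.0562% in WT in event 4361 (log2 change -3.46, edgeR adjusted p = 4.41e-08). Itga6, a laminin receptor subunit, had 69.2, 73.4 and 76.6% in KO and 44.0, 43.9 and 53.1% in WT in event 7077 (log2 change 1.61, SE 0.25, edgeR adjusted p = 4.33e-05). Ptprm, a receptor tyrosine phosphatase that mediates adhesion, had 9.80, 8.92 and 8.33% in KO and 2.85, 3.74 and 2.14% in WT in event 4136 (edgeR adjusted p = 0.000132). Pard3, a cell polarity scaffold, had 96.1 ± 1.70% in KO and 37.5 ± 20.3% in WT in event 8746 (edgeR adjusted p = 0.000193), on only 38.7 counts per library on average. The WT libraries held fewer, with short counts of 12, 6 and 7 and long counts of 13, 1 and 6. The total of this event rose by 2.52 on the log2 scale (edgeR adjusted p = 0.000224). Fbln2, a matrix glycoprotein, had 69.8, 65.5 and 70.4% in KO and 41.4, 27.8 and 25% in WT in event 3982 (log2 change 2.21, SE 0.50, edgeR adjusted p = 0.00234). It is also one of the matrix markers whose sum was higher in KO, and its event totalled 19.3 ± 6.75 CPM in KO and 10.8 ± 0.696 CPM in WT (edgeR adjusted p = 0.17).

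Chromatin and transcription genes had 67 tested events in 44 genes, with 10 long isoforms higher in KO and 4 lower (20.9%, again close to all events). The table's Pb1 had the largest changes of this group in events 3769 and 4647. The symbol is a synonym of more than 1 current gene, among them Pbrm1, so its role is left unnamed. It was counted in this list under its deposited name, and both events are among the group's calls. The isoform counted as the long one of 3769 and the short one of 4647 had 585, 748 and 466 CPM in KO and 24.6, 29.6 and 27 CPM in WT, 22.2 times the WT mean. The short isoform of event 3769 had 279, 156 and 138 CPM in KO and 1257, 1242 and 1174 CPM in WT. The long isoform of event 4647 had 69.3, 71.1 and 57.1 CPM in KO and 38.6, 34.6 and 54.7 CPM in WT. The opposite directions of the events (log2 change 7.20 with edgeR adjusted p = 2.37e-10, and -3.81 with edgeR adjusted p = 4.85e-09) thus describe the same isoform being higher in KO. Bptf, a subunit of a nucleosome remodelling complex, had 64.6, 65.1 and 47.2% in KO and 95.4, 93.8 and 93.4% in WT in event 9239 (edgeR adjusted p = 6.09e-06). Mll5, now Kmt2e, a chromatin regulator, had 36.1, 46.0 and 31.9% in KO and 10.8, 14.4 and 7.39% in WT in event 8599 (edgeR adjusted p = 4.18e-05).

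Kinases, phosphatases and GTPase regulators had 54 tested events in 39 genes, with 6 long isoforms higher in KO and 9 lower (27.8%). Map3k7, the TAK1 kinase of stress signalling, had a short isoform of 32.7 CPM in KO and 205 CPM in WT and a long isoform of 84.4 CPM in KO and 31.4 CPM in WT in event 4367. Its long share was 66.1, 80.3 and 70.4% in KO and 13.9, 13.9 and 11.9% in WT (log2 change 4.11, SE 0.36, edgeR adjusted p = 1.76e-08), and its total fell by 1.01 on the log2 scale (edgeR adjusted p = 7.31e-06). Tsc2, or tuberin, which restrains the growth kinase mTORC1, had 41.4, 35.8 and 31.1% in KO and 91.7, 86.9 and 87.9% in WT in event 9129 (log2 change -3.84, SE 0.30, edgeR adjusted p = 2.32e-09). Erbb2ip, now Erbin, a scaffold that binds the receptor ErbB2, had 40.0, 45.2 and 51.1% in KO and 9.09, 9.15 and 9.24% in WT in event 9029 (log2 change 3.04, SE 0.23, edgeR adjusted p = 1.73e-09). Ppfia1, a liprin scaffold, had 67.2 ± 7.28% in KO and 11 ± 1.79% in WT (SD, n = 3 each) in event 4682 (edgeR adjusted p = 4.19e-08). Nek1, a kinase of the NIMA family, had 13 ± 7.40% in KO and 66.8 ± 3.78% in WT in event 4653 (edgeR adjusted p = 4.25e-06).

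Mitochondrial and energy metabolism genes had 20 tested events in 13 genes, with 6 long isoforms higher in KO and 1 lower (35%). Dnm1l encodes Drp1, the dynamin-related protein that divides mitochondria, and its 2 named events share an isoform. That isoform, long in event 3927 and short in event 4328, had 245, 272 and 186 CPM in KO and 17.2, 14.8 and 21.2 CPM in WT, 13.2 times the WT mean. The short isoform of event 3927 had 136, 139 and 114 CPM in KO and 287, 235 and 245 CPM in WT, and the long isoform of event 4328 had 439.8, 409 and 262 CPM in KO and 795, 712 and 637 CPM in WT. These lower isoforms stood at 0.508 and 0.518 times their WT means, and none of the 3 overlapped between genotypes. The ratios had log2 changes of 4.69 (SE 0.28, edgeR adjusted p = 3.7e-11) and -4.69 (SE 0.35, edgeR adjusted p = 1.26e-09), and neither total passed. Acaca, the acetyl-CoA carboxylase of fatty acid synthesis, had 88.4, 83.3 and 81.1% in KO and 46.7, 48.0 and 48.6% in WT in event 9327 (edgeR adjusted p = 9.83e-06). Atp5c1, the gamma subunit of ATP synthase, had 10.8, 9.90 and 10.4% in KO and 1.58, 2.55 and 3.02% in WT in event 3744 (edgeR adjusted p = 4.74e-05).

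**Figure D4:**
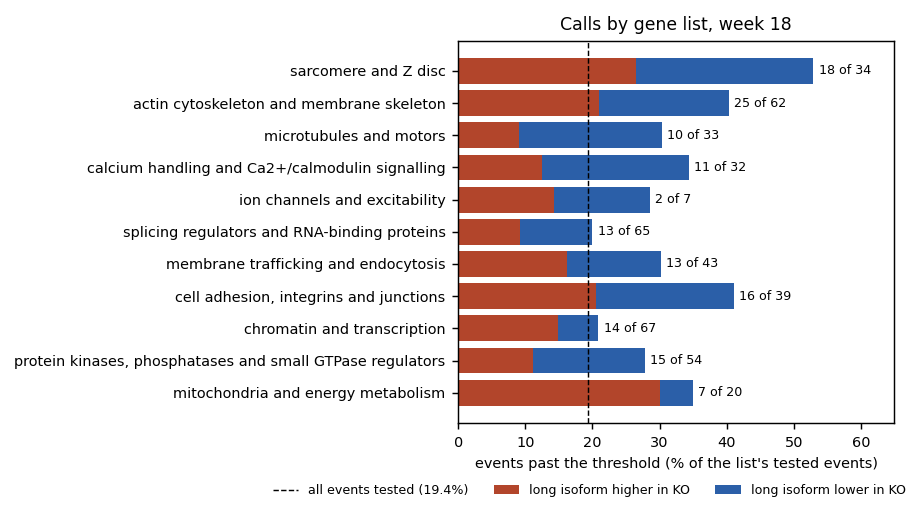
Share of each gene list's tested events (horizontal axis, %) with the long isoform higher in KO (left part of the bar) and lower in KO (right part) at week 18, with counts beside the bars. The dashed line marks the 19.4% of all 2032 events. The lists run from 52.9% for sarcomere and Z disc to 20.0% for splicing regulators, and a gene can be in 1 list or in none.

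Outside the 11 lists, 1576 events in 1357 genes were tested, with 147 long isoforms higher in KO and 104 lower (15.9%). Several of the largest changes lay there. The transcript listed as 1700012B15Rik had long shares of 21.3, 12.2 and 8.06% in KO and 96.5, 93.8 and 94.9% in WT in event 8621 (log2 change -6.91, SE 0.58, edgeR adjusted p = 8.22e-09). AU040829, now Arhgap44, a GTPase-activating protein, had 23.4 ± 1.67% in KO and 77.7 ± 3.44% in WT (SD, n = 3 each) in event 4403 (edgeR adjusted p = 2.55e-08). Usp47, a deubiquitinating enzyme, had 38.3, 36.9 and 36.2% in KO and 90.1, 89.6 and 88.7% in WT in event 4185 (log2 change -3.85, SE 0.21, edgeR adjusted p = 1.27e-11). Apbb2, an adaptor that binds the amyloid precursor protein, had 45.5, 49.5 and 36.4% in KO and 95.6, 95.8 and 96.8% in WT in event 4964 (edgeR adjusted p = 7.19e-07). Pphln1, or periphilin, had 52.4, 62.0 and 61.4% in KO and 8.97, 11.1 and 17% in WT in event 4677 (edgeR adjusted p = 4.18e-05).

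Of 284 genes with several tested events, 25 had several that passed. In 14 of these genes the events went in both directions, in 6 all long shares were higher in KO and in 5 all were lower. The opposite events shared an isoform column, as in Pb1 and Dnm1l, in 3 of the 14 genes, Clip1 being the other. In the remaining 11, among them Sorbs2, Kif21a, Kif13a, Mbnl1, Ppfia1, Add1 and Cacna1c, the opposite events shared no isoform column. Of all tested events, 146 shared a column with another, 42 of them among the 395, and counting each set of sharing events once left 384.

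The summed count of an event's isoforms differed between KO and WT in 397 of 2032 events (19.5%) by edgeR's test with TMM scaling, 218 higher and 179 lower in KO. Both the ratio and the total passed in 126 events, 31.9% of the ratio calls (against 19.5% of all tested events with a called total) and 31.7% of the total calls. Of these totals 79 were higher and 47 lower in KO. The ratio alone passed in 269 events. A total covers only the isoforms its probes detect, as the Camk2d and Kif21a events show, and is not the level of the gene.

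KO library 1 tended to lie nearest to WT. It was the KO library closest to the WT mean in 204 of the 395 events, KO library 2 in 82 and KO library 3 in 109. The median change in the called direction was 11.8 points in KO library 1, 14 in KO library 2 and 13.8 in KO library 3. KO library 1 also had the most Rbfox2 and Rbfox1 counts among the KO libraries, at 44.4 CPM for Rbfox2 event 7670 and 118 CPM for event 4130 of A2bp1. Whether these are linked was not tested. Without KO library 1, 383 events passed.

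The same test passed for 205 events at 5 weeks (10.1%) and for 343 at 9 weeks (16.9%), with other KO and WT libraries at each age. Of the 395 events at week 18, 149 passed at all 3 ages, each with the same sign, 84 also at week 9 only, 20 also at week 5 only, and 142 at week 18 alone. Passing at 1 age alone does not show a difference between ages. Of the 142, 5 had a genotype effect that itself differed from week 5 and 3 one that differed from week 9.

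The genotype effect at week 18 differed from that at week 5 in 16 events (0.787%) and from that at week 9 in 4 (0.197%), by edgeR contrasts of the effects, with 247 and 180 events at an unadjusted p under 0.05. In 15 of the 16 the effect was larger in size at week 18, and the exception was Atpbd4 event 8658. These counts moved with single libraries. For week 5 they were 24 without KO library 1, 4 without KO library 2, 6 without KO library 3, 4 without WT library 1 and 8 without WT library 2. For week 9 they were 13 without KO library 1 and 2 without KO library 2, KO library 3, WT library 1 or WT library 2.

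In some of these events the genotypes lay further apart at each later age. Mtap4 event 7683 had a long share of 34.2, 21.3 and 15.7% in KO at 5, 9 and 18 weeks and 79.7, 77.8 and 81.1% in WT, and the difference of its effect, week 18 minus week 5, was -1.59 on the log2 scale (edgeR adjusted p = 0.033). Pb1 event 3769 had 52.4, 67.1 and 75.9% in KO and 9.14, 4.83 and 2.16% in WT (difference from week 5 of 3.60, edgeR adjusted p = 0.00485). Mbnl1 event 6972 had 74.1, 80.8 and 84.4% in KO and 26.5, 14.9 and 9.35% in WT (2.64, edgeR adjusted p = 0.0431). Sorbs2 event 4048 and Dnm1l event 3927 followed the same pattern, with differences from week 5 of 1.83 and 1.67 (edgeR adjusted p = 0.0145 and 0.038).

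In others WT libraries of week 18 lay apart from WT libraries of the other ages. Rbm34 event 9380 had 50.5, 22.9 and 34.9% in KO at 5, 9 and 18 weeks, where libraries of an age spread widely (SD 21.2, 6.68 and 20.3), and 64.8, 46.5 and 98.6% in WT. Atpbd4, now Dph6, an enzyme of diphthamide synthesis, had 93.3, 99.4 and 88.4% in KO and 99.6, 99.3 and 53.0% in WT in event 8658. Its genotype effect passed in opposite directions at 2 ages, with a log2 change of -3.58 at week 5 (edgeR adjusted p = 0.00928) and of 2.77 at week 18 (edgeR adjusted p = 0.00127). Nexn, an actin-binding Z disc protein named after its values were seen, had 84.5, 79.1 and 87.4% in KO and 72.2, 66.6 and 53.7% in WT in event 7913. In Prrc2c event 7498 both genotypes stood apart from their other ages at week 18, with 41.5, 47.8 and 68.2% in KO and 38.6, 44.0 and 31.6% in WT. Smek2, now Ppp4r3b, is a regulatory subunit of protein phosphatase 4. Its event 7203 had long shares of 99.5, 99.3 and 99.95% in KO and 99.5, 99.3 and 97.8% in WT. The short isoform at week 18 averaged 0.313 CPM in KO (4, 0 and 0 counts) and 14.6 CPM in WT (76, 37 and 71 counts). Rbm34, Nexn, Prrc2c and Smek2 held the 4 events that differed from week 9. The labels give no batch, and age and any handling that differed between ages cannot be told apart.

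**Figure D5:**
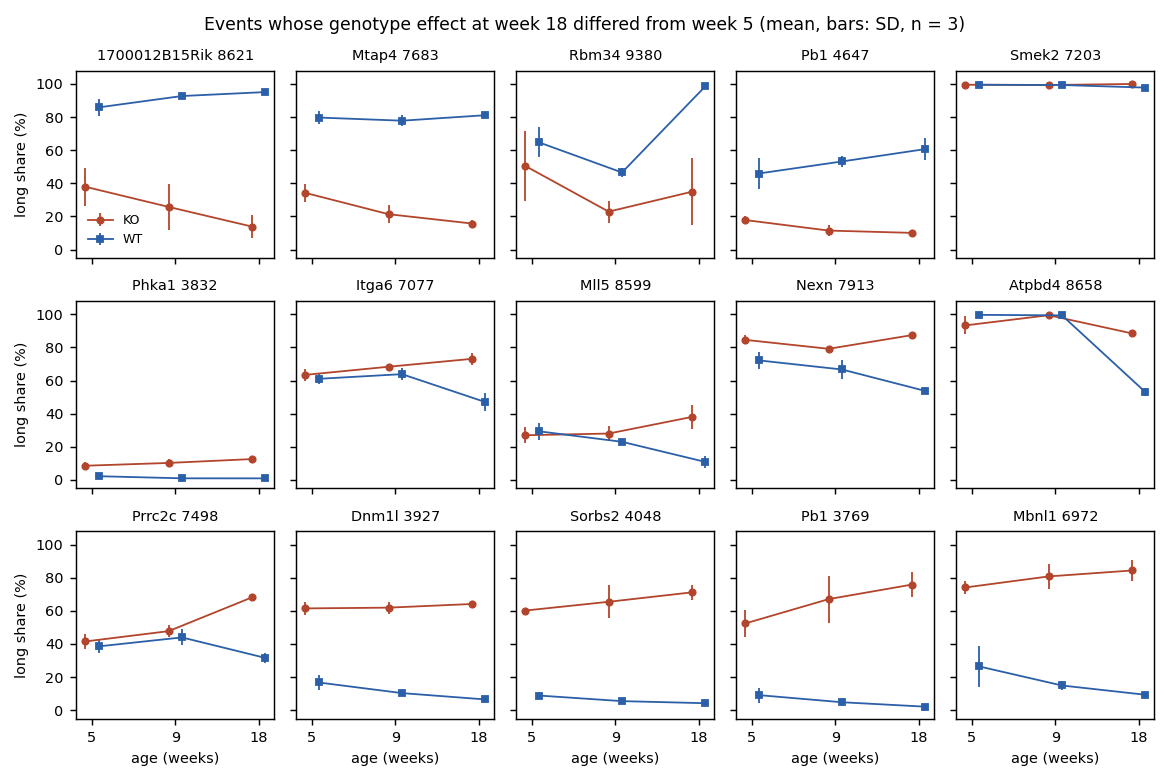
Long-isoform share (%, mean of 3 libraries, bars SD) in KO (circles) and WT (squares) at 5, 9 and 18 weeks, for 15 of the 16 events whose genotype effect at week 18 differed from that at week 5. In Mtap4 7683 the KO share was lower at each later age (34.2, 21.3 and 15.7%), whereas in Atpbd4 8658 the WT share was low at week 18 alone (99.6, 99.3 and 53.0%).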

How the data were processed

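RASL-seq of cardiac myocytes gave the only table used, and the other files and samples of the series were not analysed here. It holds unnormalised counts per splice event, isoform (short or long) and library, for 18 libraries, as deposited by the authors. Bowtie 0.12.7, cutadapt 1.2.1 and build mm9 appear in the submitters' processing notes with no role stated. No genome of that build was used, so neither coordinates nor sequences are given. Counts are not corrected for molecular duplicates, and probe pairs can ligate unequally, so a share compares groups and is not a share of molecules.

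Each event's paired counts were tested with edgeR 4.0.16 (quasi-likelihood, R 4.3.3), with a term per library, isoform by group terms for 6 groups, library totals (1998027 to 5282796 at week 18) as offsets, and Benjamini-Hochberg adjustment over 2032 events at a threshold of 0.05. All 18 libraries shared the spread. A log2 change is that of the long-to-short ratio, KO over WT, and its SE is derived from the F statistic. Event totals were tested with edgeR and TMM scaling. The procedure was tested on simulated data in which all events and both genotypes were given the same library-to-library spread of the ratio. That test does not cover a spread that differs between KO and WT. Alternatives were TMM per isoform column, DESeq2 1.42.0, limma 3.58.1 on log2((long + 0.5)/(short + 0.5)), no or stricter filters, week 18 alone, a replicate block, and each week 18 library left out in turn.

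Named events were the 15 largest rises and 15 largest falls with a mean of at least 50 counts at week 18 and no overlap, up to 4 events per list with the smallest adjusted p, all tested events of 12 genes (Tnnt2, among them, had none), and up to 8 events with the smallest adjusted p for the difference from week 5. Some events that these rules name are not reported here. Events and lists were chosen with earlier results of these data known. Of 2032 events, 1989 matched a current symbol by a unique match to RefSeq's GRCm38.p6 gene table.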

Additional observations from a re-analysis of the deposited data

Results flagged for a closer look

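The genotype effect on the log2 ratio at week 18 differed from that at another age, by a test of the difference itself, in the following named events. Against week 5 the differences (week 18 minus week 5) were 3.60 in Pb1 3769, 1.89 in Phka1 3832, 1.67 in Dnm1l 3927, 1.83 in Sorbs2 4048, -1.84 in Pb1 4647, 2.64 in Mbnl1 6972, 1.46 in Itga6 7077 and 5.07 in Smek2 7203. They were 2.02 in Prrc2c 7498, -1.59 in Mtap4 7683, 1.51 in Nexn 7913, 2.53 in Mll5 8599, -3.56 in 1700012B15Rik 8621, 6.35 in Atpbd4 8658 and -6.28 in Rbm34 9380. Against week 9 they were 4.83 in Smek2 7203, 1.99 in Prrc2c 7498, 1.67 in Nexn 7913 and -5.60 in Rbm34 9380. Phka1, a subunit of muscle phosphorylase kinase, had a long share of 8.55, 10.2 and 12.6% in KO and 2.23, 0.958 and 0.925% in WT at 5, 9 and 18 weeks. Itga6 had 63.4, 68.3 and 73.1% in KO and 61.0, 63.8 and 47.0% in WT at the same ages. Mll5 had 27, 28 and 38% in KO and 29.4, 23 and 10.9% in WT, so the genotypes were close at week 5 and apart at week 18.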

How the results depend on the processing

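Of 84 named events, 68 passed and 65 of these passed under every one of the alternatives that measured them. The exceptions were Mbnl1 3966, A2bp1 4130 and Ttn 3819. None of the 68 changed sign under an alternative, but 4 of the 16 that did not pass did. The log2 change of Sorbs2 4596 (0.21) was -0.0057 under TMM, -0.16 with DESeq2, -0.25 with limma, -0.29 with the replicate block and -1.80 to 1.66 without 1 library. That of Sorbs2 8229 (0.015) was -0.18, -0.044, -0.21 and -0.081 under the same alternatives and -0.34 to 0.35 without 1 library. Without 1 library, Rbfox2 7670 (-0.27) ran from -0.89 to 1.43 and Camk2d 8961 (-0.071) from -0.74 to 0.42. The count of events with the long isoform higher was 145 under TMM per isoform column, against 220. Counts for all ratio calls at week 18 were 332 under TMM, 401 with DESeq2, 440 with limma, 362 without a filter, 393 with means of at least 100 counts and 5 per isoform, 410 for week 18 alone and 310 to 383 without 1 library. Counts of differences between ages were less stable. For week 18 minus week 5 they were 4 under TMM, 29 with DESeq2 and 4 to 24 without 1 library. For week 18 minus week 9 they were 2 under TMM, 19 with DESeq2 and 2 to 13 without 1 library. Event totals gave 270 to 502 calls without 1 library. With the replicate number as a block, 359 ratios and 390 totals passed at week 18, with 7 differences from week 5 and 4 from week 9. Deviations of the isoform ratio in same-numbered KO and WT libraries correlated at 0.0727, 0.00925 and 0.0318 across events. Those of the event totals correlated at 0.182, -0.0395 and 0.0799. Differently numbered libraries gave -0.0625 to 0.031 for ratios and -0.201 to 0.135 for totals. With 3 libraries per genotype these values cannot settle whether the numbers are pairs, and the main fits did not treat them as pairs. Shares of events with few counts are the least certain, and 49 tested events had a mean under 25 counts.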
